A study of Mus musculus with 3 samples.

Results

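The genes described here are the receptors for GABA, glutamate, dopamine, serotonin, acetylcholine and noradrenaline. They were chosen by symbol, from the GABA-A, GABA-B, AMPA, NMDA, kainate and metabotropic glutamate, dopamine, serotonin, muscarinic, nicotinic, alpha-adrenergic and beta-adrenergic receptor families, without use of their values. In all, 63 of the 17775 gene symbols in any of the 3 count tables matched, and 43 of these had a row in all 3 tables. Of the 63, 35 had at least 20 unique molecular identifiers (UMIs, each a tagged RNA molecule) in melanotroph-like cells, 4 more (Adra2c, Chrm1, Chrnb1 and Drd4) had at least 10 UMIs in another cell type, and the other 24 were below both limits. The last group includes Grin2b, which had a row but no UMI. One of the 35, Chrna1os, is a noncoding RNA next to the nicotinic subunit gene Chrna1 and no receptor. It was left out of all family sums.

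The cells came from intermediate lobes (ILs) of the mouse pituitary, from which the study cut away the anterior and posterior lobes. Cells with markers of both these lobes were still counted, as given further on. The ILs were dissociated and counted by droplet RNA sequencing at 3 months of age, with tamoxifen given at 4 weeks according to the labels. The study's text instead has Cre induced at birth, a difference that was not resolved here. There was 1 library for each genotype, so every comparison below is between libraries and no p-value was computed. All 3 genotypes carried Sox9iresCreERT2/+, a tamoxifen-dependent Cre recombinase expressed from the Sox9 gene, which in the pituitary is active in stem cells (SCs) and not in most melanotrophs. WT had no other labelled allele, P27NULL also lacked p27 (p27-/-), and S2CK lacked p27 and carried Sox2fl/+, a copy of Sox2 that Cre can delete. The study's supplement lists a Cre reporter, Rosa26ReYFP/+, in every genotype as well, which the labels do not. Each library was a pool of animals according to the study, of males for WT and of both sexes for the other libraries.

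Melanotrophs make up most of the IL and cut proopiomelanocortin, the product of Pomc, into alpha-MSH. Unlike the endocrine cells of the anterior lobe they are innervated directly: axons from the hypothalamus that release dopamine and GABA form contacts on them, and dopamine acting on D2 receptors restrains both their secretion and their division. GABA acts through GABA-A receptors, which are chloride channels built of alpha, beta and gamma subunits, and through GABA-B receptors, which work as a pair of Gabbr1 and Gabbr2 and signal, as D2 does, through inhibitory G proteins.

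Melanotroph-like cells were named from Pcsk2, Pax7, Oacyl, Megf11, Rbfox3 and Esm1, with every receptor gene kept out of clustering and naming. They numbered 1229 of 2020 cells in WT, 3513 of 4153 in P27NULL and 2990 of 3488 in S2CK, with 5910062, 13593899 and 16971619 UMIs, and a count of 3 UMIs stood for 0.508, 0.221 and 0.177 CPM, counts per 1000000 UMIs of the cells of that type. Pcsk2 was at 4313, 5687 and 2447 CPM in them against 609, 1349 and 534 CPM in all other cells, so RNA of melanotrophs was also found outside them. The WT table kept 162 cells under 1000 UMIs and the other tables none, and pairs of tables shared 2 to 4 cell barcodes. Xist, an RNA of the inactive X chromosome, was counted in 0% of WT cells, 18.9% of P27NULL cells and 93.9% of S2CK cells, so sex and genotype moved together. Cdkn1b, the p27 gene, had 34.0 CPM in WT melanotroph-like cells and 16.9 CPM in those of S2CK. In the library labelled P27NULL it had 30.8 CPM. The counted 3′ end may lie outside the deleted part, and Cdkn1b therefore does not check the labels of P27NULL and S2CK. Sox2 in SC-like cells was at 282, 309 and 134 CPM.

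Promoter sequences are shown for the D2 receptor, for the alpha subunit with most UMIs, for a gamma subunit whose gene is its neighbour but whose promoter differs in composition, and for the GABA-B subunit that binds GABA. RefSeq (GRCm38.p6) held a promoter for 45 of the 63 members. The windows end just before the first base of the gene and run 5′ to 3′ on the gene's strand. They are Drd2 (chr9:49340153-49340359, + strand, 207 bases before the gene), Gabra2 (chr5:71095850-71096099, − strand, 250 bases), Gabrg1 (chr5:70842618-70842867, − strand, 250 bases) and Gabbr1 (chr17:37045716-37045965, + strand, 250 bases). Capitals mark matches on either strand to 3 motifs of general transcription: the GC box, spelled GGGCGG, then the box named for its letters, CCAAT, and last the TATA box, here searched as TATAAA.
Drd2: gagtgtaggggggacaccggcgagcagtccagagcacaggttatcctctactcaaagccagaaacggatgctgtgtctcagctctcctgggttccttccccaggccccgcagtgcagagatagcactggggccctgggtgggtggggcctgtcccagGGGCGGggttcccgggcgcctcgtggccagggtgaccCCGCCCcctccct
Gabra2: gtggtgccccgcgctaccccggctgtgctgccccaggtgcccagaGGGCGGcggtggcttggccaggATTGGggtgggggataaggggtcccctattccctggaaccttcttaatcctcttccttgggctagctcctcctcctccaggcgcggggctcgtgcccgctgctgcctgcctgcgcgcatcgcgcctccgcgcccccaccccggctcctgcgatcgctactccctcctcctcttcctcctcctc
Gabrg1: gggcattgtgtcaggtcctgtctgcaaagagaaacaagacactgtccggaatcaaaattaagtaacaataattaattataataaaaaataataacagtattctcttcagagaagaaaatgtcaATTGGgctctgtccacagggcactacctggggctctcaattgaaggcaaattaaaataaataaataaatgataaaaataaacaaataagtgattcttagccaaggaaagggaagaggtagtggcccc
Gabbr1: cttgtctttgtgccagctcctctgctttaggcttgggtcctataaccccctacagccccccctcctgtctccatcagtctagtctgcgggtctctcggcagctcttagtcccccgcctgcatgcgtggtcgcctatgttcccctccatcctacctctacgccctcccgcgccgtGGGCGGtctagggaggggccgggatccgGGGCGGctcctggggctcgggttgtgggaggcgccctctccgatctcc
The Drd2 window held 2 GC boxes, 1 on each strand, and neither of the other motifs. At least 1 GC box on either strand was found in 26.0% of all 32851 promoters cut to the same length. The Gabbr1 window held 2 GC boxes, both on the gene's own strand, where 32.7% of all promoters of this length hold at least 1 on either strand. The Gabra2 window held 1 GC box and 1 CCAAT box, and Gabrg1 held 1 CCAAT box, a motif found at least once on either strand in 33.8% of the windows. No window held TATAAA, which was found in 12.4% of the longer and 9.45% of the shorter windows. Gabra2 and Gabrg1 lie 116 kb apart on chromosome 5 in a run of GABA-A genes that goes on with Gabra4 and Gabrb1, but their windows differ: Gabra2 had 70.0% G and C with 18 CpG dinucleotides and Gabrg1 35.6% with 1, where the median window has 6.

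Among the dopamine receptors only Drd2 was counted in melanotroph-like cells. WT cells had 99.2 CPM (exact 95% Poisson interval 91.3 to 108, 586 UMIs), cells of the library labelled P27NULL 144 CPM (138 to 151, 1962 UMIs) and S2CK cells 115 CPM (110 to 120, 1955 UMIs). All intervals and limits given here cover counting error only, not the spread between animals. The 3 intervals did not overlap, with P27NULL highest and WT lowest. P27NULL stood above WT by a log2 ratio of 0.54 (exact conditional 95% interval 0.41 to 0.68), S2CK against P27NULL gave −0.33 (−0.42 to −0.23), and S2CK stood above WT by 0.22 (0.08 to 0.35). In the first comparison the median of all 12916 genes with at least 20 UMIs in both libraries together was 0.10, and in the second the median of 13471 genes was −0.15.

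The share of melanotroph-like cells with a Drd2 UMI was 32.5%, 34.6% and 42.8% in WT, P27NULL and S2CK as deposited, with median depths of 4202, 2822 and 5018 UMIs per cell. With each cell thinned to 2000 UMIs, which left out 80, 950 and 60 shallower melanotroph-like cells, the expected share was 16.6%, 22.7% and 19.3%. The order of the thinned shares was that of the CPM, and the order of the deposited shares was not. In macrophage-like cells, which should lack Drd2 and had median depths of 1539, 1942 and 2577 UMIs, the deposited share was 4.44%, 9.09% and 4.35% and the thinned share 5.73%, 6.92% and 2.25%. Drd4, a second receptor that signals through inhibitory G proteins, had 0 UMIs in melanotroph-like cells of WT and P27NULL, which allows a level of up to 0.624 and 0.271 CPM, and it had no row in S2CK.

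The sex of the cells moved with part of this. Within P27NULL, Drd2 was at 150 CPM (143 to 158) in the 2869 melanotroph-like cells with no Xist UMI and at 125 CPM (112 to 139) in the 633 cells with Xist and no Y-linked UMI. The log2 ratio of cells with Xist to cells without was −0.26 (−0.43 to −0.10). Compared with WT, which was male, the P27NULL cells without Xist gave a log2 ratio of 0.60. Against the P27NULL cells with Xist, S2CK gave −0.12. A cell without a Xist UMI can still be female when it is shallow, and genotype, sex and pool of animals cannot be told apart between the libraries.

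**Figure D1:**
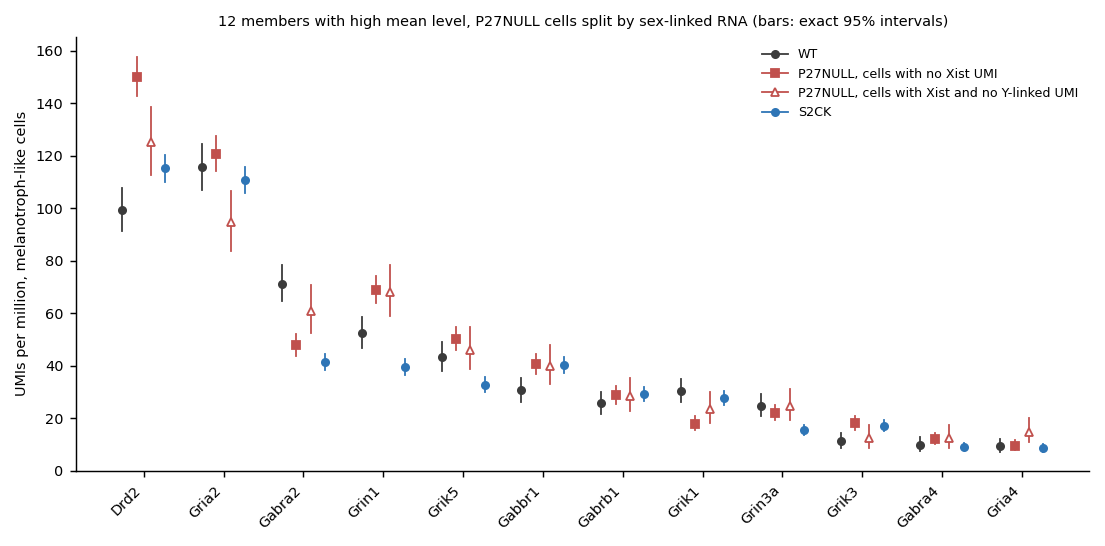
CPM in melanotroph-like cells (vertical axis, from 0) of 12 members with high mean level, with exact 95% Poisson intervals, for WT (black circles), P27NULL cells with no Xist UMI (filled red squares), P27NULL cells with Xist and no Y-linked UMI (open red triangles) and S2CK (blue circles). Drd2 is at 150 CPM in the squares and 125 CPM in the triangles, Gria2 at 121 and 94.6 CPM and Gabra2 at 47.7 and 61.0 CPM, while Grin1 is at 68.8 and 68.2 CPM.

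The GABA-A receptor was represented by 10 subunit genes with at least 20 UMIs. The alpha subunits, which with the gamma subunit form the benzodiazepine site, were mostly Gabra2. Its level was 71.2 CPM in WT (64.6 to 78.4), 50.5 CPM in P27NULL (46.8 to 54.4) and 41.4 CPM in S2CK (38.4 to 44.6), in 26.7%, 15.9% and 19.6% of cells as deposited and in 13.2%, 9.44% and 7.60% of cells at 2000 UMIs. The intervals of CPM did not overlap and WT was highest, the opposite place from that of Drd2. As log2 ratios, P27NULL against WT gave −0.50 (−0.67 to −0.32), S2CK against P27NULL gave −0.28 (−0.44 to −0.13) and S2CK against WT gave −0.78 (−0.96 to −0.60). Within P27NULL, cells with Xist had 61.0 CPM and cells without it 47.7 CPM, a log2 ratio of 0.35 (0.10 to 0.60).

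In the order WT, P27NULL and S2CK, Gabra4 was at 9.98, 12.1 and 9.19 CPM. Gabra3, an X-linked gene, was at 1.35, 3.97 and 1.83 CPM, from 8, 54 and 31 UMIs, and Gabra5 at 1.02, 0.588 and 0.825 CPM. Gabra4 and Gabrb1 overlap by 388 bases, and whether reads there moved their counts was not tested. UMIs from the 3′ end count molecules and do not grow with the length of a transcript, but the genes may differ in how well they are captured, so the shares that follow are shares of UMIs. Of all alpha subunit UMIs, Gabra2 held 85.2% in WT (exact 95% binomial interval 81.8 to 88.2), 75.0% in P27NULL (72.0 to 77.7) and 77.5% in S2CK (74.6 to 80.2). Gabra4 held 11.9%, 17.9% and 17.2%, and Gabra3 1.62%, 5.90% and 3.42%. For Gabra2 the interval of WT lay above those of both other libraries, which overlapped.

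Of the beta subunits, which bind GABA together with alpha, Gabrb1 was at 25.7, 28.8 and 29.1 CPM, and none of its log2 ratios between libraries had an interval that left out 0.

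The gamma subunit Gabrg1 was at 7.61, 6.03 and 10.3 CPM, with a log2 ratio of 0.77 (0.38 to 1.16) for S2CK against P27NULL. That ratio was 0.24 against the P27NULL cells with Xist, and within P27NULL the cells with Xist against those without gave 0.68 (−0.06 to 1.38). Gabre, an X-linked subunit, was at 2.54, 2.43 and 1.83 CPM, and Gabrd, a subunit of receptors outside synapses, at 0.677, 0.441 and 0.943 CPM from 4, 6 and 16 UMIs.

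**Figure D2:**
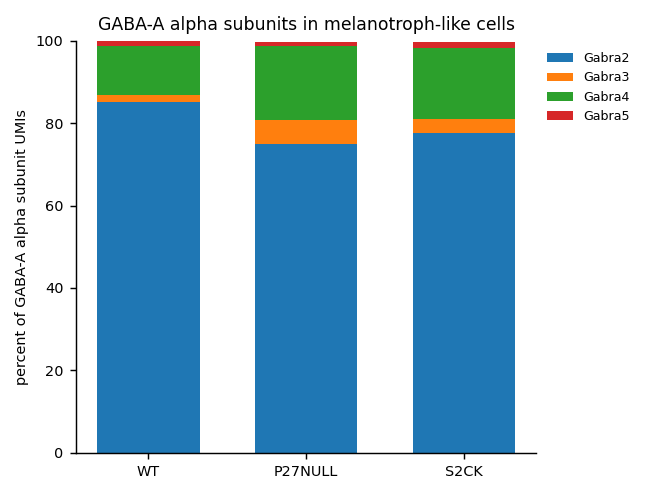
Percent of the GABA-A alpha subunit UMIs (vertical axis, 0 to 100) held by Gabra2, Gabra3, Gabra4 and Gabra5 in melanotroph-like cells, with 1 stacked bar per library and the remaining alpha UMIs left undrawn. Gabra2 holds most, 85.2% in WT, 75.0% in P27NULL and 77.5% in S2CK, with Gabra4 next at 11.9%, 17.9% and 17.2%.

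Summed over all 14 members, GABA-A subunits stood at 196 CPM in WT (185 to 208), 183 in P27NULL (176 to 191) and 164 in S2CK (158 to 171). On the log2 scale P27NULL against WT came to −0.10 (−0.20 to 0.00), S2CK against P27NULL to −0.16 (−0.24 to −0.08) and S2CK against WT to −0.26 (−0.36 to −0.16). The second of these lay beside a median of −0.15 for all genes and was −0.03 with TMM factors, a scaling that centres on the bulk of genes. Alpha subunits made up 42.5%, 36.7% and 32.5% of these UMIs. Between WT and S2CK, Gabra2 made up most of the difference between the sums. GABA-A subunits were the largest family in WT, with 25.9% of all receptor UMIs, and held 21.3% in P27NULL and 21.6% in S2CK.

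Of the GABA-B receptor, Gabbr1, which binds GABA, was at 30.6 CPM in WT (26.3 to 35.4), 40.6 in P27NULL (37.3 to 44.1) and 40.1 in S2CK (37.2 to 43.3). Both libraries labelled as lacking p27 lay above WT, with log2 ratios of 0.41 (0.16 to 0.66) and 0.39 (0.15 to 0.63). S2CK against P27NULL gave −0.02 (−0.18 to 0.15). Gabbr2, which couples the pair to the G protein, was counted far less, with 2, 21 and 31 UMIs, or 0.338, 1.54 and 1.83 CPM. The log2 ratio of Gabbr2 was 2.19 (0.16 to 5.33) for P27NULL against WT and 2.43 (0.46 to 5.54) for S2CK against WT, and rested on the 2 UMIs of WT.

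**Figure D3:**
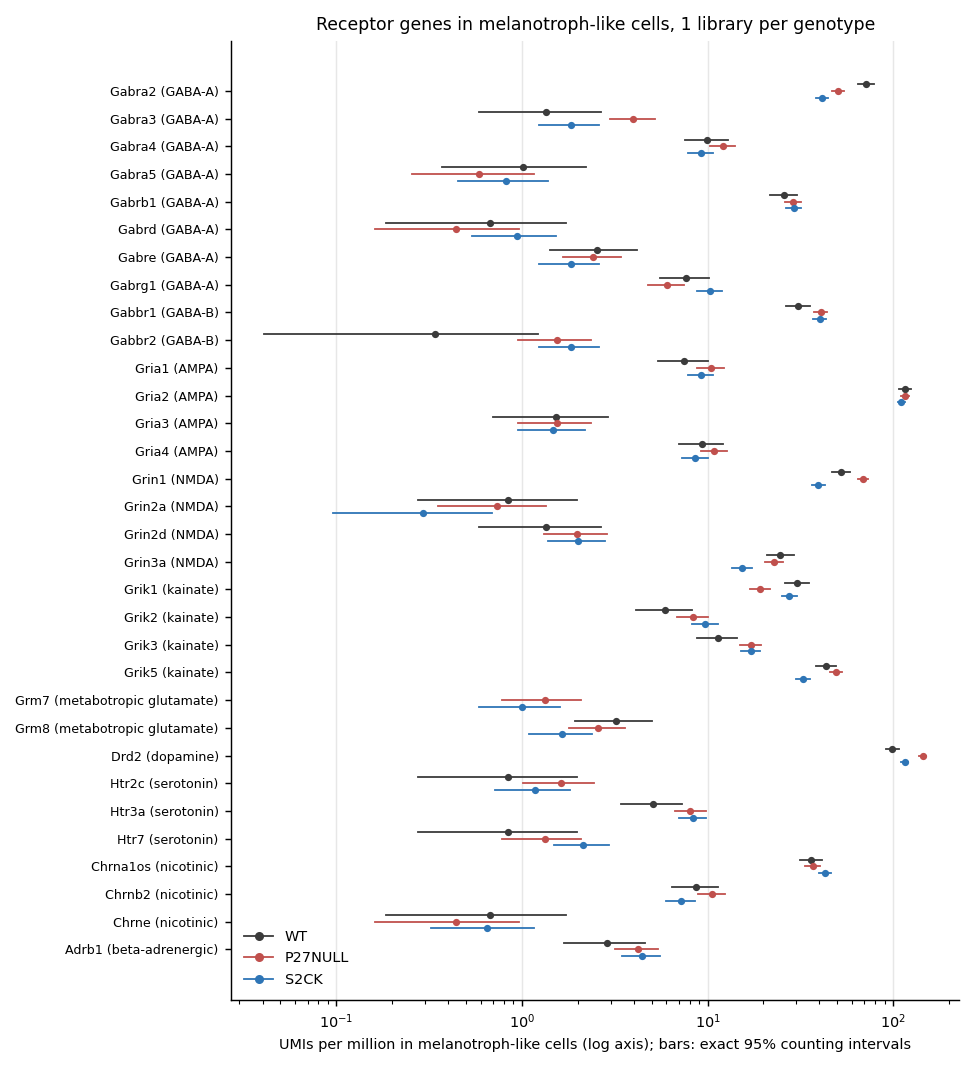
CPM (horizontal log axis, UMIs per 1000000) of 32 members with at least 20 UMIs in melanotroph-like cells, by family, as points with exact 95% Poisson intervals for WT (black), P27NULL (red) and S2CK (blue), with no point where a gene has no row or no UMI. Drd2 and Gria2 stand furthest right among those plotted, between 99.2 and 144 CPM, and Drd2, Gabra2 and Grin1 have intervals that do not overlap between any 2 libraries.

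Glutamate receptors were counted as well. The AMPA receptor, the fast cation channel of excitatory synapses, was mainly Gria2, the subunit that makes the channel impermeable to calcium after editing of its RNA. Gria2 was at 116 CPM in WT (107 to 125), 116 in P27NULL (110 to 121) and 110.7 in S2CK (106 to 116), with log2 ratios of 0.00 (−0.13 to 0.13), −0.06 (−0.16 to 0.03) and −0.06 (−0.19 to 0.07), each with an interval that included 0. Within P27NULL it was at 94.6 CPM with Xist and 121 CPM without, a log2 ratio of −0.35 (−0.54 to −0.16), and S2CK against the P27NULL cells with Xist gave 0.23. It held 86.3%, 83.5% and 85.2% of the AMPA UMIs. Gria4 was at 9.31, 10.9 and 8.60 CPM, Gria1 at 7.44, 10.4 and 9.19 CPM and the X-linked Gria3 at 1.52, 1.54 and 1.47 CPM.

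The kainate receptor genes were led by Grik5, a high-affinity subunit that needs a partner from Grik1 to Grik3. Grik5 was at 43.3 CPM in WT, 49.1 in P27NULL and 32.8 in S2CK, and Grik1 at 30.3, 19.2 and 27.6 CPM. P27NULL had the highest Grik5 and the lowest Grik1. For Grik1, P27NULL against WT gave a log2 ratio of −0.66 (−0.94 to −0.38) and S2CK against P27NULL 0.53 (0.30 to 0.75). Within P27NULL, Grik1 was at 23.6 CPM in the cells with Xist. Those cells against the cells without Xist gave 0.39 (−0.03 to 0.80). S2CK, at 27.6 CPM, was thus above the P27NULL cells with Xist by less than the 0.53 for all P27NULL cells. For Grik5, P27NULL against WT gave 0.18 (−0.03 to 0.39) and S2CK against P27NULL −0.58 (−0.75 to −0.42). Grik3 was at 11.3, 17.1 and 17.1 CPM and Grik2 at 5.92, 8.31 and 9.72 CPM. Both were lowest in WT, with log2 ratios for S2CK against WT of 0.59 (0.20 to 0.998) and 0.72 (0.18 to 1.29).

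Of the NMDA receptor, which needs Grin1 and, for its glutamate site, a Grin2 subunit, Grin1 was at 52.5 CPM in WT (46.8 to 58.6), 68.8 in P27NULL (64.4 to 73.3) and 39.6 in S2CK (36.7 to 42.7). P27NULL against WT gave a log2 ratio of 0.39 (0.20 to 0.58) and S2CK against P27NULL −0.80 (−0.94 to −0.65), and the intervals of the 3 levels did not overlap. It was −0.79 against the P27NULL cells with Xist, in which Grin1 was at 68.2 CPM against 68.8 CPM in those without. Grin3a, a subunit that with Grin1 forms channels gated by glycine, was at 24.7, 22.7 and 15.4 CPM, with a log2 ratio of −0.56 (−0.81 to −0.32) for S2CK against P27NULL. Grin2 subunits were near 0: Grin2d was at 1.35, 1.99 and 2.003 CPM and Grin2a at 0.846, 0.736 and 0.295 CPM. Grin1 and Grin3a together held all but a few percent of the NMDA UMIs, Grin1 with 66.1%, 72.7% and 69.1% and Grin3a with 31.1%, 24.03% and 26.9%.

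The metabotropic receptors Grm8 and Grm7, which act through inhibitory G proteins, were low, Grm8 at 3.21, 2.57 and 1.65 CPM and Grm7 at 1.32 CPM in P27NULL and 1.002 in S2CK with no row in WT. In S2CK against WT the log2 ratio of Grm8 was −0.96 (−1.85 to −0.04).

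Of the adrenergic receptors, Adrb1, which raises cyclic AMP, was at 2.88, 4.19 and 4.42 CPM. No alpha-adrenergic UMI was counted in melanotroph-like cells of any library.

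Serotonin and acetylcholine receptors were low. Htr3a, the cation channel among the serotonin receptors, was at 5.08, 8.09 and 8.31 CPM, with a log2 ratio of 0.67 (0.08 to 1.31) for P27NULL and 0.71 (0.13 to 1.33) for S2CK against WT. Htr2c was at 0.846, 1.62 and 1.18 CPM and Htr7 at 0.846, 1.32 and 2.12 CPM. Chrnb2, a neuronal nicotinic subunit, was at 8.63, 10.5 and 7.19 CPM and Chrne, a subunit of muscle receptors, at 0.677, 0.441 and 0.648 CPM. No nicotinic alpha subunit reached 20 UMIs in melanotroph-like cells. Chrna1os, the noncoding RNA, was at 36.2, 36.8 and 43.1 CPM, and the strand of its reads was not checked here.

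All receptor genes together, without Chrna1os, stood at 759 CPM in melanotroph-like cells of WT (736 to 781), 859 in P27NULL (844 to 875) and 761 in S2CK (748 to 774). P27NULL was thus highest, by a log2 ratio of 0.18 (0.13 to 0.23) over WT, and S2CK against WT gave 0.00 (−0.04 to 0.05). By family, NMDA subunits differed most between P27NULL and S2CK, at 94.6 and 57.3 CPM (79.4 in WT) with a log2 ratio of −0.72 (−0.85 to −0.60). AMPA subunits stood at 134, 138 and 130 CPM and kainate subunits at 90.9, 93.9 and 87.2 CPM. Dopamine receptors held 13.1%, 16.8% and 15.1% of all receptor UMIs.

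Few members were 2-fold or more apart. Of 30 members with at least 20 UMIs in P27NULL and WT together, 2 were past 2-fold in P27NULL, both higher (Gabra3, with a log2 ratio of 1.55 and an interval of 0.47 to 2.84, and Gabbr2), where 4.82% of all genes were. In S2CK against P27NULL 2 of 33 members were past 2-fold, where 6.38% of all genes were: Gabrd was higher, with a log2 ratio of 1.09 (−0.33 to 2.74), and Gabra3 lower, with −1.12 (−1.81 to −0.46). Against the P27NULL cells with Xist, Gabra3 gave 0.08, from 5 UMIs in those cells, and Gabrd had 0 UMIs in them. In S2CK against WT 2 of 32 were, Gabbr2 and Htr7, both higher, where 6.37% of all genes were. The ratio of Htr7 was 1.33 (−0.03 to 3.03). All 4 genes had 54 UMIs or fewer in every library, and the members' counts were near the background in each comparison.

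The median log2 ratio of the members was 0.28 for P27NULL against WT, beside 0.10 for all genes, with 23 members higher and 7 lower where 63.1% of all genes were higher. It was −0.07 for S2CK against P27NULL, beside −0.15, with 13 higher and 20 lower where 35.3% of all genes were higher. For S2CK against WT it was 0.20, beside −0.03, with 18 higher and 14 lower where 46.4% of all genes were higher. With TMM factors the medians of all genes were 0.02, −0.02 and 0.01 and those of the members 0.20, 0.06 and 0.24. The TMM factors thus moved the median of all genes in S2CK against P27NULL from −0.15 to −0.02 and gave 17 members higher and 16 lower there. In P27NULL against WT they gave 20 higher and 10 lower, and Gabrd alone stayed past 2-fold in S2CK against P27NULL. The comparisons share libraries, so their medians are not separate evidence. The interval of the ratio lay wholly above the median of all genes for 7 of 30 members in P27NULL against WT, where it did for 11.7% of all genes (among them Drd2, Gabbr1, Gabbr2, Gabra3, Grik3 and Grin1) and wholly below it for 3, where it did for 14.3% (among them Gabra2 and Grik1). In S2CK against P27NULL 5 of 33 lay above, where 23.3% of all genes did (among them Chrna1os, Gabrg1, Grik1 and Grik2), and 6 below, where 21.2% did (Chrnb2, Drd2, Gabra3, Grik5, Grin1 and Grin3a). Of these 6, Chrnb2 and Gabra3 turned positive against the P27NULL cells with Xist, at 0.38 and 0.08. In S2CK against WT 9 of 32 lay above, where 16.8% of all genes did (among them Drd2, Gabbr1, Gabbr2, Grik2, Grik3, Htr3a and Htr7), and 6 below, where 16.4% did (among them Gabra2, Grik5, Grin1, Grin3a and Grm8). The shares of all genes hold genes of every depth, and a gene with more UMIs has a narrower interval.

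**Figure D4:**
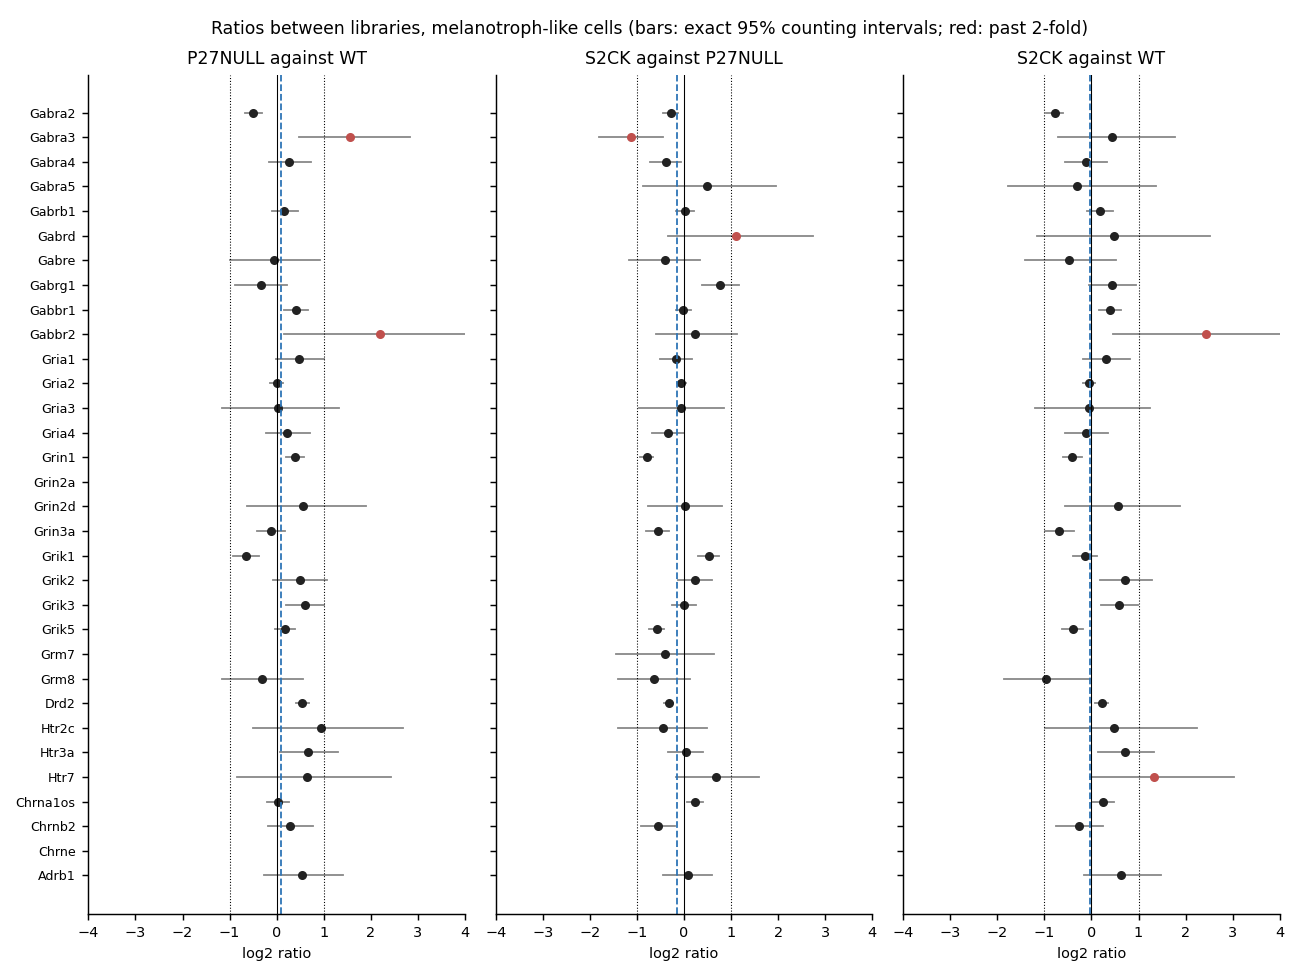
Log2 ratio (horizontal axis) with exact 95% counting intervals of the members plotted with at least 20 UMIs in the 2 libraries together, in melanotroph-like cells, with a panel for each pair of libraries, dotted lines at 2-fold, a dashed blue line at the median of all genes and red points past 2-fold. Intervals beyond the axis are clipped. Drd2 lies right of the dashed line in P27NULL against WT at 0.54 and left of it in S2CK against P27NULL at −0.33, and the red points have wide intervals.

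The genes that surround these receptors were read from lists of the pathway's other parts. Of all genes with enough UMIs, 4.82% were past 2-fold in P27NULL against WT. The share was 6.38% in S2CK against P27NULL and 6.37% in S2CK against WT, and the counts of every list stand beside these shares. The lists were read without TMM factors. Ratios near 2-fold, such as those of Gad2, Gng4 and Iqsec3, may fall under it with them, which was not tested. For the transmitters themselves, 13 of 15 listed genes had a row. Gad2, which makes GABA from glutamate, was at 27.2 CPM in WT, 55.4 in P27NULL and 32.9 in S2CK, a log2 ratio of 1.02 (0.78 to 1.28) for P27NULL against WT. Abat, which degrades GABA, was at 25.4, 25.4 and 20.9 CPM. Th, which makes the precursor of dopamine, had 2, 7 and 8 UMIs, and the vesicular GABA transporter Slc32a1 had 0 in P27NULL and S2CK and no row in WT. Of 6 genes with enough UMIs, 1 was past 2-fold higher and 1 lower in P27NULL against WT, and 1 lower in S2CK against P27NULL.

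Of the inhibitory G proteins and the potassium channels they open, 21 of 23 genes had enough UMIs in each comparison. Gng5, Gnb2 and Gng3 had most UMIs, at 847, 821 and 669 CPM, 299, 316 and 327 CPM, and 144, 197 and 243 CPM. The Gnb and Gng genes of this list code for beta and gamma subunits, which are not limited to inhibitory G proteins. Kcnj6, a channel subunit that D2 and GABA-B receptors open, was at 35.9, 52.9 and 17.7 CPM, with a log2 ratio of −1.58 (−1.78 to −1.38) for S2CK against P27NULL and −1.02 (−1.27 to −0.76) against WT. Gng4 was at 40.1, 49.4 and 23.5 CPM, with −1.07 (−1.25 to −0.89) for S2CK against P27NULL. Gng11 was at 125, 61.6 and 60.6 CPM, with −1.02 (−1.16 to −0.87) for P27NULL against WT. No gene of the list was past 2-fold higher, and 1, 2 and 2 were lower in P27NULL against WT, S2CK against P27NULL and S2CK against WT. Of all genes 4.82%, 6.38% and 6.37% were past 2-fold in either direction.

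On the opposing branch, Gnas, the stimulatory G protein, was at 4394, 5466 and 5208 CPM and Prkar1a, a regulatory subunit of protein kinase A, at 292, 352 and 303 CPM. The same list held Gna11, a G protein that is no part of that branch, at 129, 126 and 128 CPM. None of 15 genes of the list was past 2-fold in P27NULL against WT, where 4.82% of all genes were. In S2CK against P27NULL 2 of 16 were, where 6.38% of all genes were. Of the receptor kinases, arrestins and RGS proteins, which end G protein signals, Rgs9 was at 92.2, 98.7 and 77.2 CPM, Rgs16 at 34.7, 47.3 and 41.4 CPM and Grk2 at 25.7, 36.5 and 22.2 CPM. Rgs2 was past 2-fold lower in S2CK against WT, at 35.7, 22.1 and 11.4 CPM with a log2 ratio of −1.64 (−1.93 to −1.35). It was the only 1 of 21 genes there, where 6.37% of all genes were past 2-fold.

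Of the proteins that bind GABA receptors, Gabarapl2, Gabarap and Gabarapl1 had most UMIs, at 810, 727 and 800 CPM, 605, 670 and 614 CPM and 129, 145 and 112 CPM. Iqsec3, a protein of inhibitory synapses, was at 13.4, 18.2 and 8.66 CPM, with a log2 ratio of −1.07 (−1.37 to −0.77) for S2CK against P27NULL. The other gene of the list past 2-fold there was higher, and 18 had enough UMIs, where 6.38% of all genes were past 2-fold. Of the chloride transporters, none of 7 was past 2-fold in any comparison. Slc12a5, which lowers chloride in mature neurons, was at 26.7, 36.0 and 40.3 CPM and the exchanger Clcn3 at 150, 135 and 138 CPM.

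Among 20 partners of glutamate receptors, Cnih2 was at 59.1, 76.9 and 60.5 CPM, the scaffold Dlg4 at 44.0, 56.3 and 39.2 CPM and Pick1 at 29.6, 32.5 and 28.0 CPM. Cacng2, which carries AMPA receptors to the membrane, was past 2-fold higher in P27NULL against WT, at 10.998, 25.1 and 16.3 CPM with a log2 ratio of 1.19 (0.80 to 1.60), and was the only 1 of them in that comparison. In S2CK against WT 1 of the list was past 2-fold higher and 1 lower, where 6.37% of all genes were past 2-fold. Of the acetylcholine genes, the chaperone Ric3 was at 37.9, 39.7 and 35.6 CPM, Ache, which degrades acetylcholine, at 25.7, 26.9 and 22.0 CPM and Tmem35a at 7.44, 9.12 and 7.37 CPM, and none of 4 was past 2-fold. Over the lists, the median log2 ratio ran from 0.06 to 0.38 in P27NULL against WT and from −0.43 to −0.05 in S2CK against P27NULL, beside 0.10 and −0.15 for all genes.

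Outside melanotrophs, receptor UMIs had to be read against free RNA. For each cell type the level that free melanotroph RNA would give was taken as the member's CPM in melanotroph-like cells times the ratio of Pomc CPM in the type to Pomc CPM in melanotroph-like cells. That ratio ran from 1.01% in cells of the Pou1f1 lineage in WT to 58.8% in pituicyte-like cells of S2CK. Drd2 and Gabra2 were above it, with their interval and at least 5 UMIs, in no type in more than 1 library. Below 5 UMIs, Drd2 in cells of the Pou1f1 lineage is the case given further on. In macrophage-like cells Drd2 was at 24.9, 44.5 and 16.1 CPM where free RNA would give 16.0, 54.3 and 29.9 CPM, and Gabra2 at 4.15, 29.7 and 5.37 CPM where it would give 11.5, 19.0 and 10.8 CPM.

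Pituicyte-like cells, the glia of the posterior lobe, held the highest level of any kainate subunit. Grik3 was at 271 CPM in WT (178 to 394, 27 UMIs in 46 cells), 258 CPM in P27NULL (156 to 403, 19 UMIs in 19 cells) and 98.6 CPM in S2CK (36.2 to 215, 6 UMIs in 16 cells), where free RNA would give 2.80, 4.94 and 10.0 CPM. Each interval lay above the free-RNA level and above the Grik3 level of melanotroph-like cells of the same library. The share of cells with a Grik3 UMI was 34.8%, 68.4% and 25.0%, against 5.21%, 6.03% and 8.96% of melanotroph-like cells. Gria3 was at 100 CPM in WT and 95.2 CPM in P27NULL, from 10 and 7 UMIs, with 0 UMIs in S2CK, where a count of 0 allows up to 60.6 CPM. The markers of these cells differed too. In the order WT, P27NULL and S2CK, Col25a1 was at 431, 449 and 82.2 CPM and Scn7a at 662, 625 and 148 CPM. Nkx2-1 was at 201, 190 and 49.3 CPM, and Rax and Gja1 were also lowest in S2CK. Slc1a3 in S2CK lay between the other libraries, and Gfap was highest there, at 230 CPM. What this does to Grik3 and Gria3 was not tested.

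Adra2c, an alpha-2 adrenergic receptor, was counted in connective-tissue-like cells, at 39.4, 34.5 and 31.9 CPM from 5 UMIs in each library, with 0 UMIs in melanotroph-like cells.

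A cluster led by Tnnt1, Nnat and Rprml, which was left unnamed, held an AMPA receptor gene that melanotroph-like cells also hold. Gria2 was at 139 CPM in WT (110 to 172), 145 in P27NULL (107 to 191) and 180 in S2CK (138 to 231), where free RNA would give 41.3, 42.4 and 58.8 CPM. Drd2 was at 18.4, 35.4 and 26.2 CPM where 35.5, 52.9 and 61.3 CPM would be given, with the interval below that level in WT and S2CK. Gabra2 was at 20.03, 23.6 and 5.82 CPM where 25.5, 18.5 and 22.0 CPM would be given. These cells held 35.8%, 36.7% and 53.2% of the Pomc CPM of melanotroph-like cells, and the free-RNA level counts all of it as free, so it is too high if they make Pomc themselves, which was not tested. Gabbr1 was at 41.7, 50.1 and 55.3 CPM, above the 10.96, 14.9 and 21.3 CPM of free RNA. In each library Gria2 was thus at a higher CPM here than in melanotroph-like cells, and Drd2 and Gabra2 at a lower one.

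Gonadotroph-like cells had Gabbr1 at 21.8, 44.0 and 43.1 CPM and Grik5 at 30.0, 33.5 and 33.5 CPM, each with an interval above the free-RNA level in all 3 libraries, as was Gria2. Drd4 was counted there at 10.9 CPM in WT and 33.5 CPM (19.1 to 54.4) in P27NULL, from 4 and 16 UMIs. Gabrd was at 5.45, 35.6 and 0 CPM, from 2, 17 and 0 UMIs. Gabrd was highest in P27NULL. Drd4 was higher in P27NULL than in WT, on the few UMIs given, and had no row in S2CK. In cells of the Pou1f1 lineage, which include the makers of growth hormone and prolactin, Gria2 was at 37.1, 65.5 and 21.2 CPM where free RNA would give 1.17, 2.60 and 1.94 CPM, and Drd2, which holds back prolactin, was at 14.9, 39.3 and 21.2 CPM from 4, 3 and 5 UMIs. Free RNA would give 1.001, 3.24 and 2.02 CPM of Drd2 there, and the lower limits of 4.05, 8.10 and 6.90 CPM lay above it in all 3 libraries.

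SC-like cells numbered 136, 104 and 83 in WT, P27NULL and S2CK. Their members above the free-RNA level in all 3 libraries were Gabbr1, at 28.2, 39.7 and 23.8 CPM, Grik5, at 33.8, 37.0 and 12.7 CPM, and Grin2a, at 13.2, 13.2 and 9.54 CPM where free RNA would give 0.126, 0.0677 and 0.0460 CPM. Grin2a thus stood higher in SC-like cells than in melanotroph-like cells, in which it was below 1 CPM. Chrm1, a muscarinic receptor, was at 7.52, 18.5 and 12.7 CPM and Chrnb1, a nicotinic subunit known from muscle, at 15.0, 7.93 and 31.8 CPM. Drd2 was at 20.7, 13.2 and 33.4 CPM, where free RNA would give 14.8, 13.3 and 17.98 CPM, and Gria2 at 9.39, 18.5 and 44.5 CPM, where it would give 17.2, 10.6 and 17.3 CPM. Both were above that level with their interval only in S2CK.

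Between libraries, only 3 to 6 members had at least 20 UMIs in SC-like cells of the 2 libraries together. With so few UMIs, a member can pass this limit through the library where it is high, which favours large ratios. The shares of all genes below hold genes of every depth, so the counts of members are no result about the members. In S2CK against P27NULL 4 of 6 were past 2-fold, where 12.7% of all genes were: Chrnb1, Drd2 and Gria2 were higher and Grik5 lower. The log2 ratio was 2.003 (0.25 to 4.40) for Chrnb1, 1.34 (−0.11 to 3.10) for Drd2, 1.27 (0.04 to 2.70) for Gria2 and −1.54 (−3.00 to −0.19) for Grik5. Pomc, counted in these cells as free RNA, was at 9.20% of its melanotroph level in P27NULL and 15.6% in S2CK, and its part in the ratios of Drd2 and Gria2 was not tested. In S2CK against WT 3 of 6 were past 2-fold, where 10.9% of all genes were, and in P27NULL against WT 1 of 3, where 7.34% were.

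**Figure D5:**
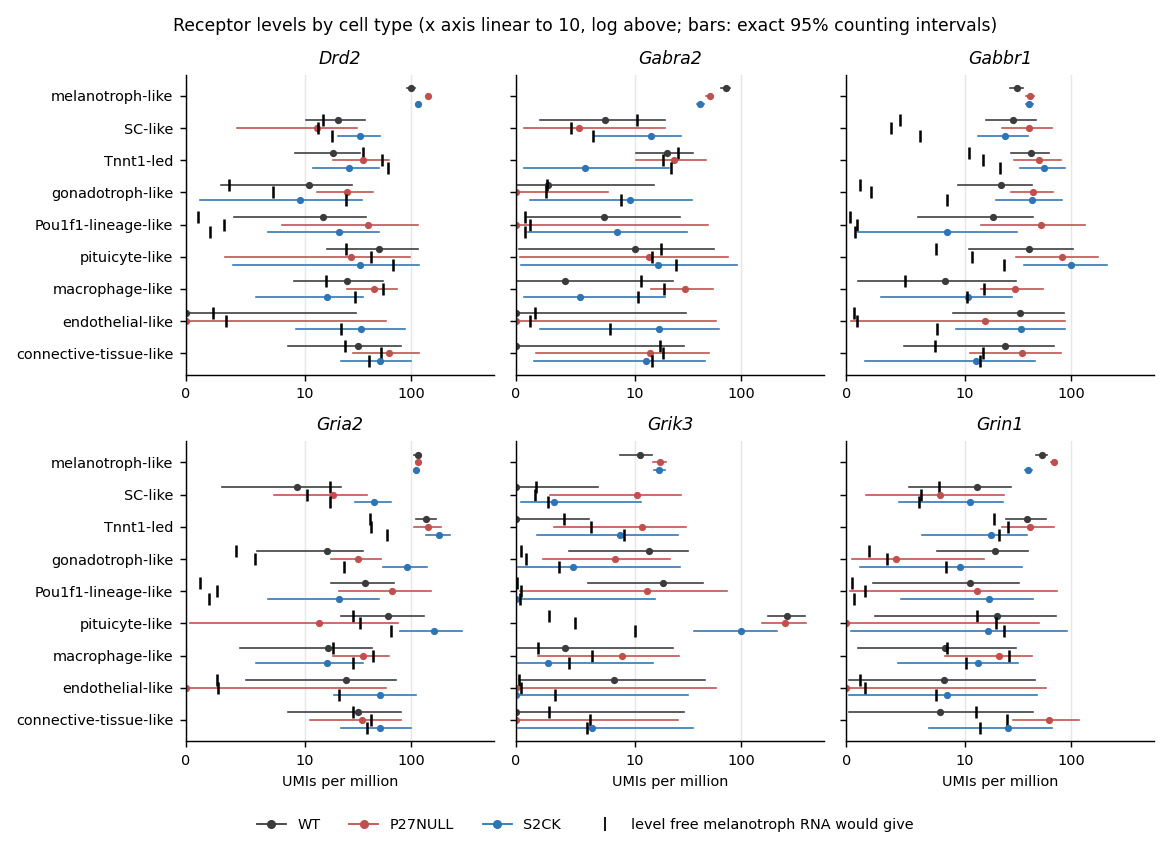
CPM (horizontal axis, linear to 10 and logarithmic above) of 6 members in each cell type, as points with exact 95% Poisson intervals for WT (black), P27NULL (red) and S2CK (blue), with a black tick at the level that free melanotroph RNA would give. In macrophage-like cells the intervals of Drd2 and Gabra2 include the tick, while Grik3 lies far right of it in pituicyte-like cells and Gria2 in the Tnnt1-led cluster.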

How the data were processed

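The authors deposited 1 table of UMI counts (whole numbers, not normalised) per library, made from 10x Chromium Single Cell 3′ libraries. The submitters' processing notes name Cell Ranger 3.0.2, STAR 2.5.1b, R 3.6.0, Seurat 3 and the build mm10. Cells were clustered per library with scanpy 1.11.5 (2000 variable genes, 20 components, 20 neighbours, leidenalg 0.10.2 at resolution 1). Melanotroph-like and SC-like cells were taken from these clusters and other types from a joint clustering, each named from at least 3 markers in at least 10% of cells. The naming limits were set after seeing the data. Scrublet scores called 9, 1 and 1 doublets and so did not work; 33, 138 and 97 cells of highest score were left out only as an alternative. Counts were summed per library and type and divided by the type's total. Intervals are exact (scipy 1.17.1), and edgeR 4.0.16 gave TMM factors only. Interval coverage was tested only on simulated Poisson counts, the model that the intervals assume. That simulation held no spread between animals or cells. With 1 library per group no test was made between groups. A ratio needed at least 20 UMIs in both libraries together and a row in both tables, and 2-fold was the limit for a count. Members could be named with at least 20 UMIs in melanotroph-like cells or 10 in another type; pathway genes were among the 3 of highest level per list and those past 2-fold with at least 100 UMIs, beside the transmitter genes at or near 0, chosen after seeing their values. The members and lists were chosen with earlier results of these data known. Some genes of the families and lists are counted in sums and totals but are not reported here by name.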

Additional observations from a re-analysis of the deposited data

How the results depend on the processing

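With 1 library per genotype, the spread between animals is unknown, and genotype, sex and pool cannot be told apart. Depth limits the members under about 20 UMIs. No paired analysis was possible because each group has 1 library. For S2CK against P27NULL, the log2 ratio of Drd2 (−0.33) was −0.20 with TMM factors, −0.20 with totals that leave out Pomc, mitochondrial and ribosomal protein genes, and −0.12 against the P27NULL cells with Xist. That of the GABA-A sum (−0.16) was −0.028, −0.032 and −0.27. Against the P27NULL cells with Xist, Gabra3 turned to 0.077 and Gabrd to −0.14, and Gabra2 held 80.0% of alpha UMIs in those cells. The count of members past 2-fold was 1 in P27NULL against WT with cells thinned or with at least 50 UMIs. In S2CK against P27NULL it was 1 with doublets left out, at resolution 2, with TMM factors, with the totals above, thinned, or with at least 50 UMIs. In S2CK against WT it was 0 thinned or with at least 50 UMIs, and 5 with at least 5 UMIs, where 9.92% of all genes were. The share of melanotroph-like cells with Drd2 was 8.67%, 12.6% and 10.2% at 1000 UMIs and 32.5%, 34.6% and 42.8% as deposited. The cause of these shifts was not tested. Of 98 ratios, 39 had an interval without 0, and 2 of these changed sign under an alternative, both against the P27NULL cells with Xist: Gabra3, and Chrnb2 at 0.38. Those cells were an alternative for S2CK against P27NULL only. In that comparison 16 ratios moved outside their own interval and 16 stayed within it. Gabra3 and Gabrd, which had been past 2-fold, turned sign.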

Other observations

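Within the library labelled P27NULL, 10 of 29 members with at least 20 UMIs differed between melanotroph-like cells with Xist and those without it by more than counting error, 4 higher and 6 lower with Xist. Of all 12403 genes with at least 20 UMIs in these cells 19.5% did, 4.26% higher and 15.3% lower, and their median log2 ratio was −0.13. Htr2c, an X-linked serotonin receptor that signals through calcium, was at 4.16 CPM with Xist and 0.947 without. Its log2 ratio was 2.13 (0.80 to 3.50) from 12 and 10 UMIs. Gria1 was at 5.20 and 11.5 CPM, with −1.14 (−2.02 to −0.36), while Gria4 was at 14.9 and 9.56 CPM, with 0.64 (0.09 to 1.17), so the minor AMPA subunits had opposite orders. Chrnb2 was at 5.54 and 11.9 CPM, with −1.11 (−1.96 to −0.35). The cells came from 1 library, and animals and sexes cannot be told apart.

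Across the clusters that make up the melanotroph-like cells, Drd2 was counted in all of them. It ran from 69.2 to 132 CPM over 6 clusters in WT, from 117 to 167 CPM over 8 in P27NULL and from 89.8 to 190 CPM over 11 in S2CK, with medians of 90.7, 135 and 108 CPM. Gabra2 ran from 22.9 to 81.8 CPM, from 36.3 to 61.9 CPM and from 34.5 to 59.6 CPM. The clusters differed in size, the smallest of WT with 31 cells, so the ends of a range can rest on few UMIs. Cells of 1 library share their source, so these ranges are a description.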
